A study of Mus musculus with 6 samples.

Results

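The genes described here encode enzymes of glycolysis, glycogen metabolism and the pentose phosphate pathway, with the pyruvate dehydrogenase kinases and a few enzymes of gluconeogenesis, fructose and acetate metabolism. They were taken as a list of 41 gene symbols, grouped by function and drawn up with earlier results of these data known. Of these, 38 had a probe set annotated to that gene alone, out of 18194 genes measured. Gpi1, Eno1 and G6pdx were not analysed here. Where a gene had several probe sets, the one with the highest mean over the 6 arrays, in log2, was used.

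RNA came from uterine epithelium of pregnant mice, separated from the rest of the uterus with pancreatin and dispase, and was hybridised to Affymetrix 3′ expression arrays, 1 per sample. Samples 302 and 303 are wild type and were taken on day 1 of pregnancy, counted from the finding of a vaginal plug. Samples 277 and 284, also wild type, and samples 253 and 281, which are Sox17 heterozygous, were taken on day 4. The heterozygotes carry a Sox17 allele with GFP beside a normal allele, so they keep a working copy of this transcription factor gene. Strain and age are not given in the sources used here, and no heterozygous sample of day 1 was analysed here. The design asks which genes differ between the start of pregnancy and the day on which the mouse uterus becomes receptive to the embryo, and which differ on that day with the loss of 1 Sox17 copy.

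Glycolysis splits glucose into pyruvate in a preparatory phase that spends ATP and a pay-off phase that returns it, and lactate dehydrogenase then interconverts pyruvate and lactate. Glucose 6-phosphate can instead be stored as glycogen, or enter the pentose phosphate pathway, which yields NADPH and ribose. Uterine epithelium stores glycogen and breaks it down around implantation, and glucose, lactate and pyruvate are among the nutrients available to the embryo before it attaches.

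The promoters of 4 members are printed because the members' promoters held a short motif, ACGTG, more often than promoters in general, and because these genes are 2 with lower and 2 with higher signal on day 4. ACGTG is the core of the sites bound by hypoxia-inducible factors. It was searched on both strands, where its reverse complement is CACGT. The palindrome CACGTG holds both and counts on each strand. Each sequence is RefSeq's, on GRCm38.p6, covering 300 bases that lie mostly before a gene's start, read 5′ to 3′ along the gene's strand, with ACGTG and CACGT in capitals. Pgk1, which encodes phosphoglycerate kinase, lies at chrX:106186850-106187149 on the plus strand. Ldha, which encodes a lactate dehydrogenase subunit, lies at chr7:46845554-46845853 on the plus strand. Pfkfb3, which encodes an enzyme that makes fructose 2,6-bisphosphate, lies at chr2:11553880-11554179 on the minus strand. Pdk3, which encodes a pyruvate dehydrogenase kinase, lies at chrX:93832101-93832400 on the minus strand.
Pgk1: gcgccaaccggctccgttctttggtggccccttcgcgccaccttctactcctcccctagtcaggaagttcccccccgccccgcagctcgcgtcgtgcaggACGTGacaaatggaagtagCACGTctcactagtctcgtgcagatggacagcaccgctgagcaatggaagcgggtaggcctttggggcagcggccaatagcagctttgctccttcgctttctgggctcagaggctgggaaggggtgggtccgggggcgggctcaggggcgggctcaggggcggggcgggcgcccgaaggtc
Ldha: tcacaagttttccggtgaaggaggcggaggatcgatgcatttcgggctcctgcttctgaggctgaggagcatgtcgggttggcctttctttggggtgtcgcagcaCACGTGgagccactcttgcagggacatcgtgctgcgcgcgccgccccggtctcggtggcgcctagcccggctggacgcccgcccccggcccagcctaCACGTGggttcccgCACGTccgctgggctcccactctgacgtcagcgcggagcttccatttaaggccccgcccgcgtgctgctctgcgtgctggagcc
Pfkfb3: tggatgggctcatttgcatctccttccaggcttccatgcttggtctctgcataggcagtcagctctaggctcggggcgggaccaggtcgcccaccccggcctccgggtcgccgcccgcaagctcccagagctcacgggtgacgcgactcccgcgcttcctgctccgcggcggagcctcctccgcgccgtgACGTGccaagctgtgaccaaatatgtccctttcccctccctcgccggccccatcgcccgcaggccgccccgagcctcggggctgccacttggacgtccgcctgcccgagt
Pdk3: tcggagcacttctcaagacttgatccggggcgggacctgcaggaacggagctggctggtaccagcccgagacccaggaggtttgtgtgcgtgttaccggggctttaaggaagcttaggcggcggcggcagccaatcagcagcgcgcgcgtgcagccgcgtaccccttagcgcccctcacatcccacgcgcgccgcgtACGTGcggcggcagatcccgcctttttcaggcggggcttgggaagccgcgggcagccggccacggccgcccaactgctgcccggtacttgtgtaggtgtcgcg
The Ldha stretch holds 5 occurrences, counting both strands of its 2 CACGTG palindromes, and the Pgk1 stretch holds 2. Those of Pfkfb3 and Pdk3 hold 1 each. Ldha and Pfkfb3 have 2 promoters each in the table, of which the first is shown. The second holds 0 occurrences for Ldha and 2 for Pfkfb3. All 4 stretches shown hold ACGTG. Of the 13 members lower on day 4, only 7 had it in any promoter, and of the 4 higher ones 3 did.

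All 38 measured members matched RefSeq's table, with 54 promoters between them. ACGTG was present in 25 of the 54 (46.3%), against 6447 of all 32851 promoters in the table (19.6%). Among the members that were lower on day 4 than on day 1 in wild type, 8 of 20 promoters held it (40%). Among those that were higher, 4 of 6 did (66.7%), and among those that did not pass the test, 13 of 28 did (46.4%). ACAAT (reverse complement ATTGT), the short core that SOX proteins bind, was present in 12 of the members' 54 promoters (22.2%), against 31% of all promoters. Some genes have several overlapping promoters in the table, so these shares are descriptions of sequence and not of binding. Members' promoters and all promoters were not matched for base composition or for the signal of their genes.

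The values are probe set signals on a linear scale, and differences are given on the scale of log2(signal + 1), with the standard error from limma after ±. Nothing in the labels says that the samples of a group came from separate animals, so p-values measure only the spread between these arrays. With 2 arrays per group and 3 residual degrees of freedom, the number of arrays limits the precision. The wild-type day 4 array 277 stood apart: its median signal over all probe sets was 138, where the other 5 arrays had 66.2 to 78.0. Of its probe sets 27.0% were under a signal of 50, where the others had 41.6% to 44.6%. The median signal of the measured members was brighter than that of the array as a whole, from 726 to 1166. Arrays of one group differed by a median of 0.59 in log2 over all genes in wild type on day 4, and by 0.31 over the members. The matching medians for the members were 0.26 on day 1 and 0.19 in the heterozygotes. Epithelial marker genes were bright on every array, with a summed signal of 149566 to 170154 over 9 measured genes, none of them under 50. Of 10 stromal markers, 1 to 7 were under 50 on an array, most on array 253, and they summed to 3581 and 9008 on day 1, 1878 and 2895 in wild type on day 4, and 492 and 917 in the heterozygotes. Smooth muscle markers summed to 1038 and 1065, 614 and 455, and 265 and 239.8 in the same order. Sox17 itself read 7738 and 8671 on day 1, 34794 and 35060 in wild type on day 4, and 30189 and 28810 in the heterozygotes. Its second probe set read 2394 and 2478, 22781 and 18473, and 13304 and 13061 in the same order. The heterozygous arrays were below the wild-type day 4 arrays on both. On the first, the log2 change was -0.24 ± 0.19 and did not pass (limma, Benjamini-Hochberg adjusted p = 0.586). The first is also of a design that can read related transcripts. Whether either probe set also reads the GFP allele was not tested.

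Between day 1 and day 4 of pregnancy in wild type, the signal of most enzymes of the glycolytic trunk fell, while Pfkfb3, Pdk3, Ugp2 and Acss2 rose. Of the 38 measured members, 13 were lower and 4 higher at an adjusted p under 0.05 (limma with Benjamini-Hochberg adjustment over all 18194 genes). Among all genes, 5.73% were lower and 7.58% higher. The median log2 change of the members was -0.48, against 0.30 over all genes. Without array 277 these medians were -0.69 and 0.05, and without array 284 they were -0.34 and 0.53. Arrays of the 2 groups did not overlap for 21 members that were lower and 12 that were higher, where 21.3% and 35.4% of all genes did so. Members are brighter than most genes. With genes of mean signal under 100 left out, 16 of 33 members were lower and 6 higher, against 17.4% and 22.6% of the 10602 genes kept.

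**Figure D1:**
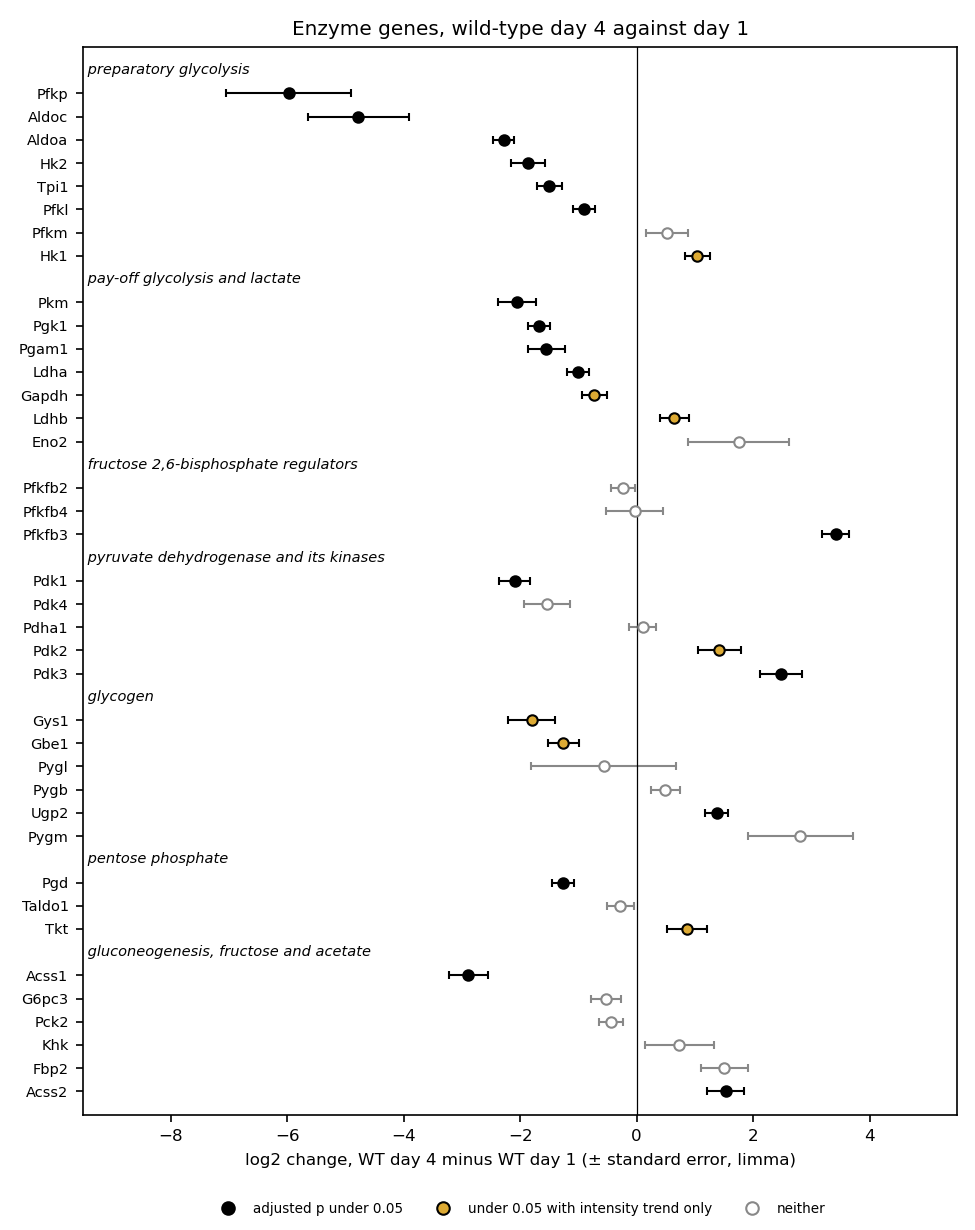
Log2 change in signal from day 1 to day 4 in wild-type epithelium for the 38 measured members (x axis, with limma standard errors as bars), grouped by pathway. Filled black points passed an adjusted p of 0.05, yellow points did so only in the fit whose prior spread follows intensity, and open points in neither. The changes run from -5.97 for Pfkp to 3.42 for Pfkfb3.

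In the preparatory phase, 6 of 8 measured genes fell and none rose past the threshold, with a median log2 change of -1.68. Aldoa, which encodes the main aldolase outside liver and brain, read 22357 and 22497 on day 1 and 4704 and 4515 on day 4. Its replicates lay close together. That is a fall of 4.87-fold (log2 change -2.28 ± 0.18, adjusted p = 0.00848). Tpi1, the triose phosphate isomerase gene, read 19694 and 16637 on day 1 and 6170.4 and 6674 on day 4 (log2 change -1.50 ± 0.21, adjusted p = 0.0213). Hexokinases trap glucose in the cell by phosphorylating it. The signal of Hk2 was 7501 and 6766 on day 1 and 1831 and 2103 on day 4 (log2 change -1.86 ± 0.29, adjusted p = 0.0277). Hk1, the other hexokinase among the members, lay on the other side: 555 and 718 on day 1 and 1292 and 1313 on day 4, with no overlap (log2 change 1.04 ± 0.22, adjusted p = 0.0519), just short of the threshold. The changes of Hk1 and Hk2 thus had opposite signs.

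Phosphofructokinase catalyses the committed step of glycolysis and is built from liver, muscle and platelet type subunits. Pfkp, the platelet type, had the lowest log2 change of all members on the probe set used. Its signal was 2027 and 1295 on day 1 and 71.5 and 8.24 on day 4 (log2 change -5.97 ± 1.07, adjusted p = 0.0370). One of the day 4 arrays lay far under a signal of 50 and the other just above it, so the size of the change is poorly fixed. At a log2 difference of 2.97, this gap was the widest between wild-type day 4 arrays among the members. Other probe sets of Pfkp gave smaller changes. One read 419 and 261 on day 1 and 103 and 93.0 on day 4 (log2 change -1.75), and a dimmer one gave -0.18. Pfkl, the liver type, was 1555 and 1710.3 on day 1 and 880.1 and 856 on day 4 (log2 change -0.91 ± 0.19, adjusted p = 0.0491). Pfkm, the muscle type, read 181 and 221 and then 390.2 and 210.2, with overlapping groups (log2 change 0.52 ± 0.36, adjusted p = 0.411). Aldoc, the aldolase best known from brain, was 2916 and 4962 on day 1 and 309 and 60.9 on day 4 (log2 change -4.78 ± 0.87, adjusted p = 0.0378). Both day 4 values were far below both day 1 values, although the replicates spread widely.

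In the pay-off phase and at lactate dehydrogenase, 4 of 7 measured genes fell and none rose past the threshold, with a median log2 change of -1.01. Pgk1, whose product makes the first ATP of this phase, read 16677 and 15465 on day 1 and 5237 and 4841 on day 4 (log2 change -1.67 ± 0.19, adjusted p = 0.0142). Pkm, the pyruvate kinase gene, read 5610.3 and 5705 on day 1 and 1760 and 1057 on day 4 (log2 change -2.05 ± 0.33, adjusted p = 0.0282). Neither gene's groups overlapped. Pgam1, a phosphoglycerate mutase gene, was 8864 and 5778 on day 1 and 2066 and 2897 on day 4 (log2 change -1.55 ± 0.32, adjusted p = 0.0496). Ldha, which encodes the lactate dehydrogenase subunit typical of lactate-producing tissue, read 20379 and 19421 and then 9614 and 10178 (log2 change -1.01 ± 0.19, adjusted p = 0.0405), a fall of 2.01-fold.

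Gapdh was the brightest member and is often used as a reference gene. It was read from the array's own control probe sets, since the other probe sets that list it also list further genes. Its 5′ control set read 31678 and 29569 on day 1 and 20595 and 16605 on day 4, lower on both day 4 arrays, without passing the test (log2 change -0.73 ± 0.21, adjusted p = 0.106). The 3 control sets gave log2 changes of -0.75, -0.73 and -0.85. Ldhb, which encodes the subunit typical of lactate-using tissue, read 1187 and 1419.7 on day 1 and 1780.1 and 2327 on day 4 (log2 change 0.65 ± 0.25, adjusted p = 0.178). On this probe set its day 4 values were above both day 1 values, and it did not pass. Further probe sets of Ldhb gave log2 changes of 0.26, 1.08 and 0.20, and on the first and last of these the groups overlapped. Eno2, the neuron type enolase gene, stayed under a signal of 50 on all 6 arrays, at 16.0 and 2.17 on day 1 and 28.0 and 20.2 on day 4.

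Fructose 2,6-bisphosphate activates phosphofructokinase, and the Pfkfb enzymes make and remove it. Pfkfb3 read 775 and 813 on day 1 and 7387 and 9743 on day 4, which set both day 4 arrays far above day 1. This rise of 10.7-fold (log2 change 3.42 ± 0.24, adjusted p = 0.00755) had the highest log2 change of the members. Its sign was opposite to that of the called changes of Pfkp and Pfkl. Pfkfb2 (548 and 454, then 402 and 449.5) and Pfkfb4 (394 and 475, then 671 and 267) did not pass, with adjusted p = 0.523 and 0.977.

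**Figure D2:**
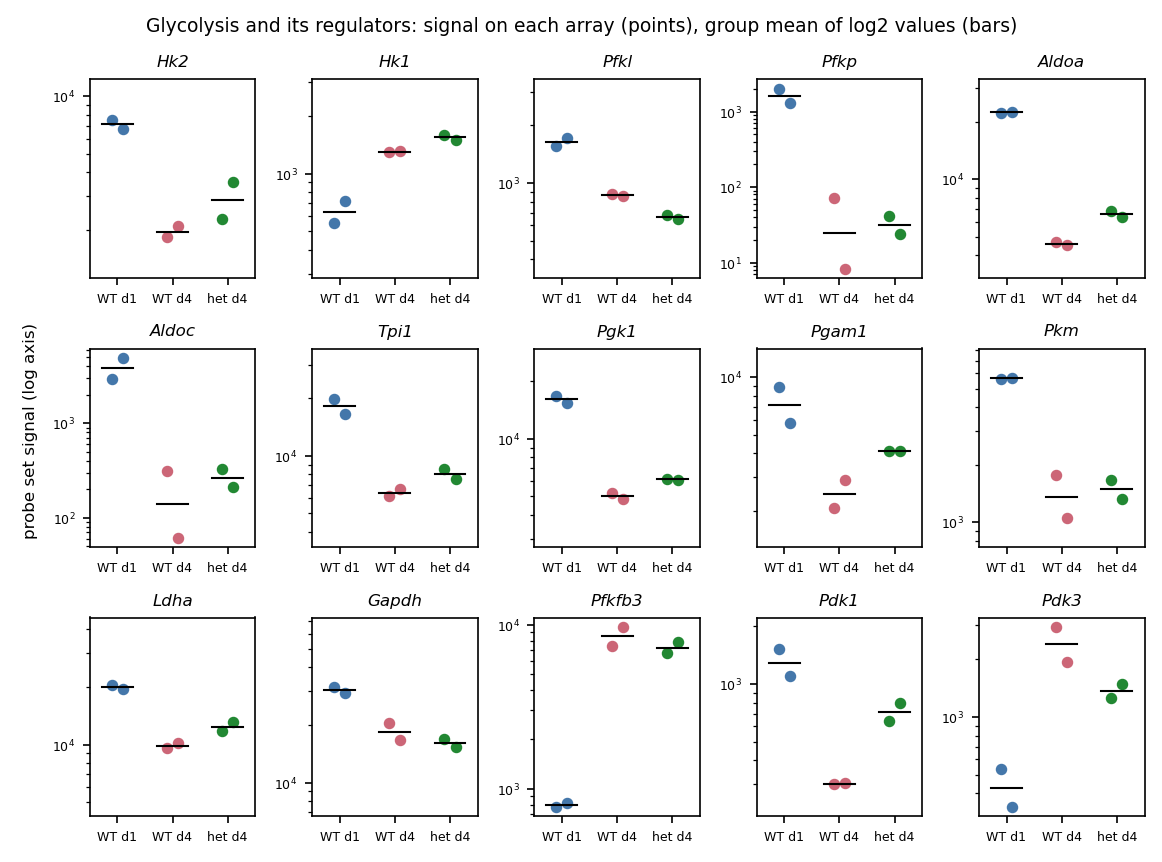
Signal on each array (y axis, log scale, arbitrary units) of 15 genes of glycolysis and its regulation, by group (x axis: wild type day 1, wild type day 4, Sox17 heterozygous day 4). Points are arrays, 2 per group, and bars are the means of the log2 values; Aldoa drops from 22357 to 4704 between the wild-type groups while Pfkfb3 climbs from 775 to 7387 on the first array of each group.

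Pyruvate dehydrogenase passes pyruvate on to the citric acid cycle, and its kinases switch it off. Pdha1, which encodes the catalytic subunit, was bright and read 4903 and 5774 on day 1 and 6534 and 4990.2 on day 4 (log2 change 0.10 ± 0.24, adjusted p = 0.811), with overlapping groups. Its other probe set was lower on both day 4 arrays, at 2360 and 2375 on day 1 and 1678 and 1486 on day 4 (log2 change -0.58). The kinases split: Pdk1 fell and Pdk3 rose. Pdk1 read 1519 and 1099.6 on day 1 and 299.8 and 303 on day 4 (log2 change -2.10 ± 0.26, adjusted p = 0.0168). Pdk3 read 537 and 339 on day 1 and 2963 and 1940.1 on day 4 (log2 change 2.49 ± 0.36, adjusted p = 0.0231). In both genes the groups were well separated. Pdk2 was 84.2 and 137 on day 1 and 364 and 230.5 on day 4, higher on both day 4 arrays, and did not pass (log2 change 1.42 ± 0.37, adjusted p = 0.0830). Pdk4 was under 50 on every array, at 32.2 and 30.3 on day 1 and 11.4 and 8.96 on day 4 (log2 change -1.54 ± 0.40, adjusted p = 0.0805).

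Of the 6 glycogen genes, 1 rose, none fell past the threshold, and the median log2 change was -0.04. Ugp2, whose product makes the UDP-glucose from which glycogen is built, read 4276 and 3838 on day 1 and 10195 and 10868 on day 4 (log2 change 1.38 ± 0.20, adjusted p = 0.0222). The enzymes that use UDP-glucose and shape the chain lay the other way without passing. Gys1, the glycogen synthase gene expressed outside liver, read 428 and 442 and then 139.9 and 109.6 (log2 change -1.80 ± 0.40, adjusted p = 0.0600). Gbe1, the branching enzyme gene, read 732 and 1037 and then 329.6 and 399.8 (log2 change -1.26 ± 0.26, adjusted p = 0.0514). In both, each day 4 array was below each day 1 array. Glycogen phosphorylases break glycogen down, and Pygb, the brain type, was the only bright one of the 3. It read 939 and 1231 on day 1 and 1409 and 1625 on day 4 (log2 change 0.49 ± 0.25, adjusted p = 0.269). The muscle type gene Pygm was dim, at 5.01 and 2.96 on day 1 and 55.5 and 19.7 on day 4 (log2 change 2.81 ± 0.90, adjusted p = 0.125). The liver type gene Pygl was also dim, at 35.4 and 54.3 on day 1 and 61.4 and 13.8 on day 4 (log2 change -0.56 ± 1.24, adjusted p = 0.801). At signals this low neither value can be told from background here, since no detection calls were used.

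In the pentose phosphate pathway, 1 of 3 measured genes fell and none rose past the threshold. Pgd, whose product 6-phosphogluconate dehydrogenase yields NADPH, fell from 7471 and 7326 on day 1 to 3162 and 2999 on day 4 (log2 change -1.26 ± 0.18, adjusted p = 0.0228). Tkt encodes transketolase, which moves carbon between pentose phosphates and glycolysis. On the probe set used it read 5495 and 6611 on day 1 and 8496 and 14309.9 on day 4, higher on both day 4 arrays without passing (log2 change 0.87 ± 0.34, adjusted p = 0.185). Another bright probe set of Tkt read 2528 and 3710 on day 1 and 3784 and 3585 on day 4, with overlapping groups (log2 change 0.27). A dimmer one, with a mean signal of 96.8, gave -0.26. Taldo1, the transaldolase gene, read 5356 and 5243 and then 5054 and 3762 (log2 change -0.28 ± 0.23, adjusted p = 0.479).

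Both acetyl-CoA synthetase genes changed, in opposite directions. Acss1 encodes the mitochondrial enzyme and fell from 2121 and 2333 on day 1 to 328 and 274 on day 4 (log2 change -2.89 ± 0.34, adjusted p = 0.0158), a 7.39-fold change with no overlap. Acss2 encodes the enzyme of the cytosol and nucleus and rose from 375 and 386 to 1159 and 1041 (log2 change 1.53 ± 0.31, adjusted p = 0.0478). The other 4 genes of gluconeogenesis and fructose use did not pass. Fbp2, a fructose bisphosphatase gene, was 42.9 and 19.9 on day 1 and 83.7 and 86.6 on day 4, higher on both day 4 arrays (log2 change 1.51 ± 0.40, adjusted p = 0.0870). Pck2, G6pc3 and Khk had log2 changes of -0.43, -0.53 and 0.73.

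**Figure D3:**
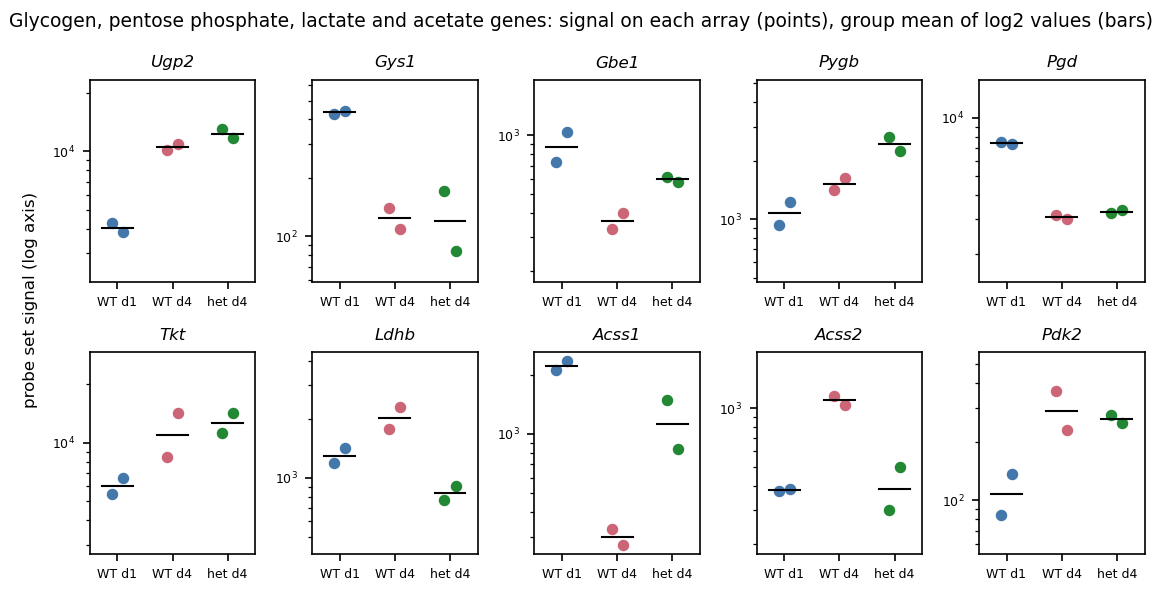
Signal on each array (y axis, log scale, arbitrary units) of 10 genes of glycogen, pentose phosphate, lactate, acetate and pyruvate metabolism, by group (x axis). Points are arrays and bars are the means of the log2 values; the wild-type day 4 arrays of Acss1 lie below and those of Acss2 above all arrays of the other 2 groups.

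The calls for single members depended on the small number of arrays. At an unadjusted p under 0.05 there were 25 members (29.7% of all genes). Without either day 1 array, none of the 18194 genes passed the adjusted limma test. The members' median log2 change was -0.57 without array 302 and -0.35 without 303, against 0.26 and 0.28 over all genes. A limma fit whose prior spread follows intensity called 24 members with all arrays (24.8% of all genes), 19 members without array 302 (17.5%) and 23 without array 303 (19%). In the default fit, centring each array on its median left 8, 2 higher and 6 lower, against 3.23% and 4.51% of all genes. Without array 277 the count was 8 (9.31% of all genes) and without 284 it was 12 (13.5%). Without either heterozygous array, which enters only the estimate of the spread, it was 3, namely Aldoa, Pfkfb3 and Acss1 (3.39% of all genes). The direction of all 17 called members was the same in all 24 settings tried. Of these 17, 12 had further probe sets, and for 8 all of those had the same sign. A further probe set of Pfkl gave a log2 change of 0.30, of Aldoa 0.02, of Pdk1 0.50 and of Acss2 -0.22. Those of Pdk1 and Acss2 were dim, with mean signals of 50.7 and 35.9, against 199 for Pfkl and 2181 for Aldoa. The probe sets used for 3 members, Aldoa, Pgd and Tkt, are of a design that can read related transcripts. Median log2 changes of the marker lists of other cells over the same days were -0.50 for stroma and -0.46 for smooth muscle. They were 0.52 for neutrophils, 0.60 for endothelium, 1.08 for skeletal muscle, 1.17 for lymphocytes, 1.23 for macrophages and 2.33 for erythrocytes. Many of these markers were dim, and every list with a median above 0 summed higher on array 277 than on 284. Lymphocyte markers summed to 691 on array 277 and 189 on 284, against 294 and 243 on day 1. Endothelial and neutrophil sums on array 284 lay between those of the day 1 arrays. Erythrocyte and skeletal muscle sums were above day 1 on both day 4 arrays. Of the 8 macrophage genes, Lyz2 and C1qa rose, Cd68 fell from 6401 and 5746 to 224 and 157, and the other 5 were above 0 without passing. Their part in the members' changes was not tested. In bulk RNA, fewer cells of a type and less RNA per cell cannot be told apart.

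Other genes of the same pathways, a list of 81 of which 71 were measured, were set beside the members in the wild-type comparison. Of these, 5 were higher (7.04%) and 7 lower (9.86%), against 7.58% and 5.73% of all genes, with 59 not past the threshold. Their median log2 change was 0.37, against 0.30 over all genes. Pcx, the pyruvate carboxylase gene that starts gluconeogenesis from pyruvate, read 541 and 641 on day 1 and 7889 and 8355 on day 4 (log2 change 3.78 ± 0.20, adjusted p = 0.00620). Galm, which encodes the enzyme that interconverts the forms of galactose and glucose, read 491 and 732 and then 11214 and 8213 (log2 change 4.00 ± 0.31, adjusted p = 0.00822). Pdp2, a phosphatase gene that opposes the pyruvate dehydrogenase kinases, read 172 and 157 and then 1451 and 1178 (log2 change 2.98 ± 0.22, adjusted p = 0.00784). All 3 rose without overlap. Stbd1, a glycogen-binding protein gene, fell from 454 and 419.9 to 60.7 and 52.5 (log2 change -2.93 ± 0.21, adjusted p = 0.00766). Chosen after its values were seen, H6pd, which encodes the endoplasmic reticulum counterpart of the oxidative pentose phosphate enzymes, read 5847 and 5519 on day 1 and 407 and 279.9 on day 4 (log2 change -4.07 ± 0.39, adjusted p = 0.0106). The others that rose were Phkb and Phkg2, subunits of phosphorylase kinase. The others that fell were Bpgm, Pgm2, Nhlrc1, Ppp1r3b and Ppp1r3e.

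**Figure D4:**
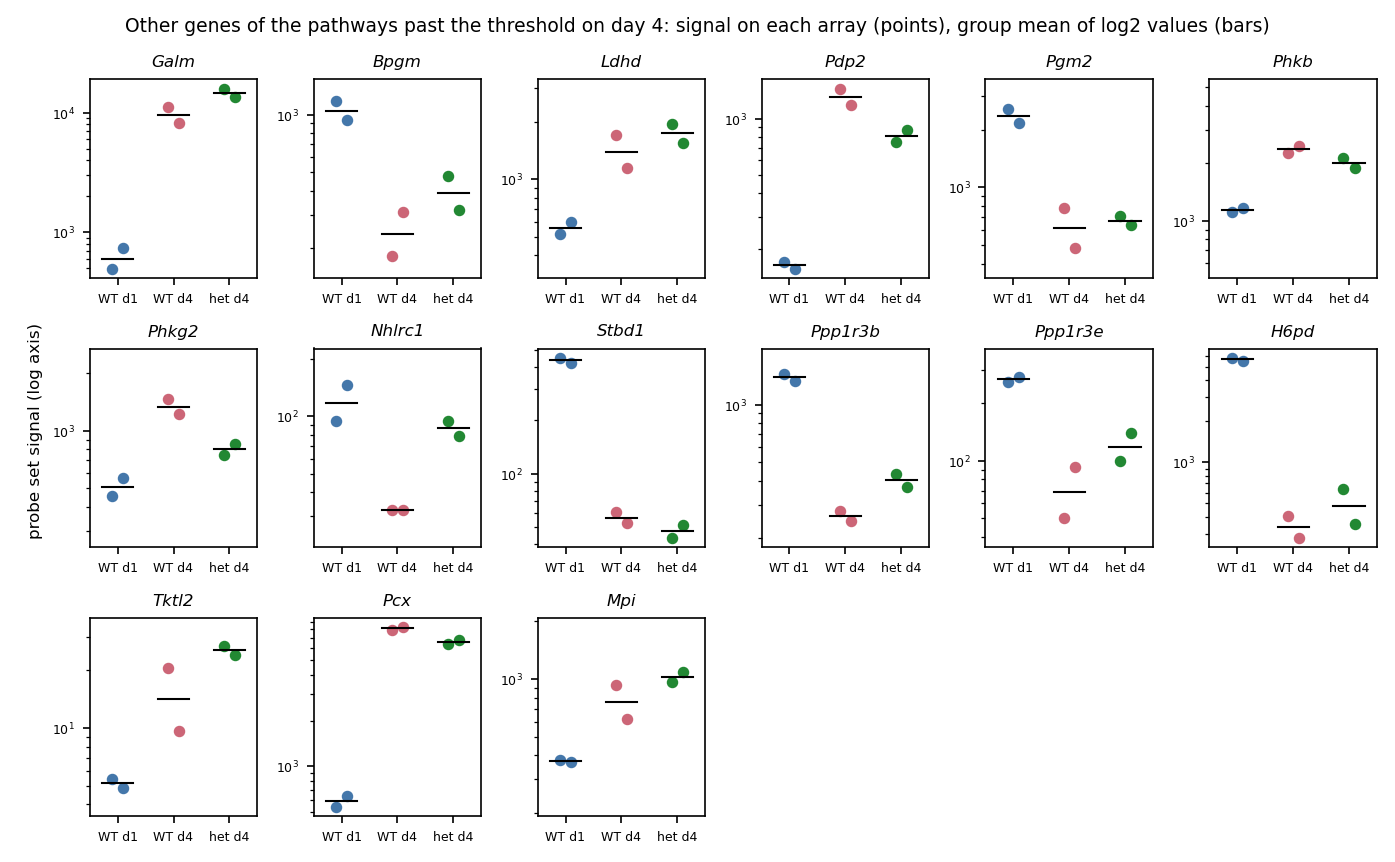
Signal on each array (y axis, log scale, arbitrary units) of the other pathway genes past an adjusted p of 0.05 in either day 4 group against wild type on day 1, by group (x axis). Points are arrays and bars are the means of the log2 values; Pcx and Galm are high and H6pd and Stbd1 low on all 4 day 4 arrays.

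On day 4, no member passed between Sox17 heterozygotes and wild type at an adjusted p under 0.05 in limma (0 of 38, with 0% of all 18194 genes). At an unadjusted p under 0.05, 6 members were higher and 2 lower, where 4.56% and 8.66% of all genes were. The smallest adjusted p among the members was 0.201. Their median log2 change was 0.16, against -0.20 over all genes, and 25 members were above 0 and 13 below, where 37.3% of all genes were above 0. Without array 284 the medians were 0.01 and -0.39, with 19 members above 0, and without array 277 they were 0.27 and -0.02, with 27 members and 48.5% of all genes above 0. Centring each array on its median put 31 members and 62.7% of all genes above 0. With genes of mean signal under 100 left out, the medians were 0.20 for members and -0.02 for all genes. Arrays did not overlap for 17 members that were higher and 6 that were lower in heterozygotes, against 18% and 30.6% of all genes. Stromal and smooth muscle markers were lower in the heterozygotes, as given above, and the summed signal was below both wild-type day 4 arrays on both heterozygous arrays in 7 of the 8 lists of other cell types. Their part in the members' changes was not tested.

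A fit whose prior spread follows intensity called 4 members, 2 higher and 2 lower, against 1.93% and 1.59% of all genes. Acss1 read 328 and 274 in wild type and 1482 and 843 in heterozygotes, which lay between wild type on day 4 and wild type on day 1 (log2 change 1.89 ± 0.34, adjusted p = 0.201, and adjusted p = 0.00332 with the intensity trend). Acss2 read 1159 and 1041 in wild type and 298 and 496 in heterozygotes, on either side of its day 1 values of 375 and 386 (log2 change -1.51 ± 0.31, adjusted p = 0.221, adjusted p = 0.0107 with the trend). Ldhb read 1780.1 and 2327 in wild type and 775 and 905 in heterozygotes, below its day 1 level (log2 change -1.28 ± 0.25, adjusted p = 0.214, adjusted p = 0.00542 with the trend). Pdk1 read 299.8 and 303 in wild type and 644 and 793 in heterozygotes, still below day 1 (log2 change 1.24 ± 0.26, adjusted p = 0.224, adjusted p = 0.0124 with the trend). In each of the 4, the groups did not overlap.

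These 4 calls rest on few arrays. Without heterozygous array 253 the trend fit called 1 member, Acss1 (0.605% of all genes), and without 281 it called 3 (1.4%). After centring each array on its median, an alternative chosen after seeing the data, it called Acss1 alone. The mean over the probe sets of Acss1 gave a log2 change of -0.10, because a second, dim probe set read the other way at -2.47. Another probe set of Pdk1 read -1.65 and another of Acss2 0.40, both dim, with mean signals of 50.7 and 35.9. The brighter further probe sets had the sign of those used, at 1.29 and 0.75 for Pdk1 and -1.31 for Acss2. All 3 further probe sets of Ldhb had the same sign as the one used.

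**Figure D5:**
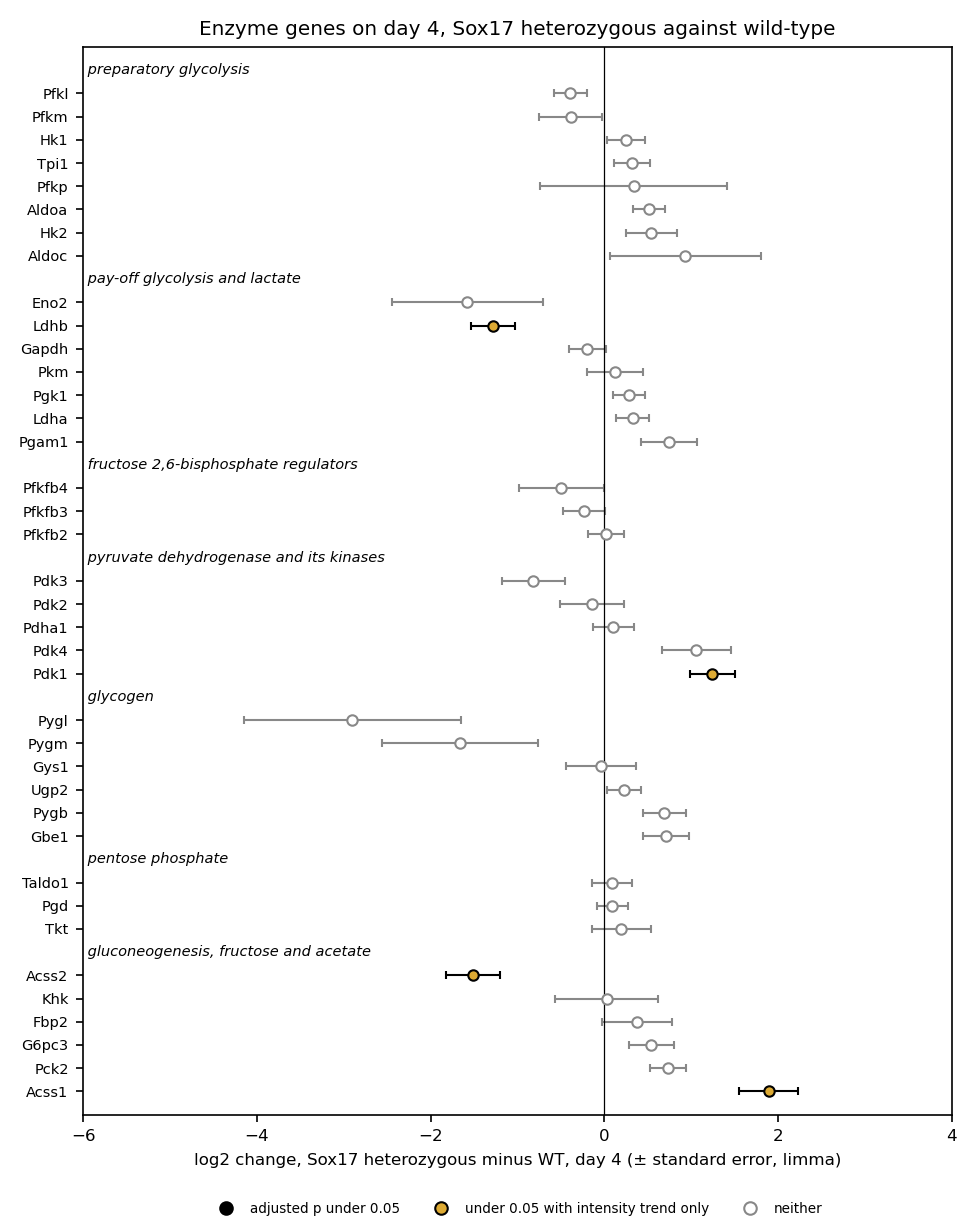
Log2 change in signal between Sox17 heterozygotes and wild type on day 4 for the 38 measured members (x axis, with limma standard errors as bars), grouped by pathway. No point passed an adjusted p of 0.05 in the default fit; the 4 yellow points, Acss1, Pdk1, Acss2 and Ldhb, did so in the fit whose prior spread follows intensity.

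Apart from Ldhb, no gene of the preparatory or pay-off phase passed in either fit. The preparatory genes had a median log2 difference of 0.33 between heterozygotes and wild type, and the pay-off and lactate genes 0.13. Aldoa read 6864 and 6362 in heterozygotes against 4704 and 4515 in wild type, and both heterozygous arrays were above both wild-type arrays (log2 change 0.52 ± 0.18, adjusted p = 0.361). Pgam1 read 4099 and 4106 against 2066 and 2897 (log2 change 0.75 ± 0.32, adjusted p = 0.414). Hk2 read 2283 and 3565 against 1831 and 2103 (log2 change 0.54 ± 0.29, adjusted p = 0.474), and Pgk1 6162 and 6112 against 5237 and 4841 (log2 change 0.29 ± 0.19, adjusted p = 0.534). Pfkl lay lower, at 677 and 648 against 880.1 and 856 (log2 change -0.39 ± 0.19, adjusted p = 0.440), though centring each array on its median turned the change to 0.06. Pfkfb3 was 6680.2 and 7786 in heterozygotes and 7387 and 9743 in wild type (log2 change -0.23 ± 0.24, adjusted p = 0.670), a change that centring turned to 0.21. A p that misses the threshold does not show that the groups were alike: with a standard error of 0.19 for Pgk1 and 1.07 for Pfkp, differences of very different size could have been missed.

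Among the remaining branches, Pdk3 read 1250.4 and 1478 in heterozygotes and 2963 and 1940.1 in wild type (log2 change -0.82 ± 0.36, adjusted p = 0.420). Gbe1 was 614 and 579 against 329.6 and 399.8 (log2 change 0.71 ± 0.26, adjusted p = 0.375), and Pygb 2647 and 2253 against 1409 and 1625 (log2 change 0.69 ± 0.25, adjusted p = 0.363). Heterozygous arrays were the higher ones for both glycogen genes. Pgd (3219.8 and 3349 against 3162 and 2999), Tkt (11222 and 14229 against 8496 and 14309.9) and Ugp2 (13002 and 11706 against 10195 and 10868) had adjusted p = 0.828, 0.807 and 0.619. Pck2, which encodes the mitochondrial enzyme that makes phosphoenolpyruvate, read 420.1 and 481 in heterozygotes against 248 and 292 in wild type (log2 change 0.74 ± 0.21, adjusted p = 0.290). Among the 71 other pathway genes, 0 passed and the median log2 change was -0.23, against -0.20 over all genes.

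Set against wild type on day 1, the heterozygotes had 3 members higher (Hk1, Pfkfb3 and Ugp2) and 6 lower (Pfkl, Aldoa, Tpi1, Pgk1, Pkm and Pgd) at an adjusted p under 0.05 in limma, where 5.07% and 4.48% of all genes were. At an unadjusted p under 0.05 there were 23 members (25.9% of all genes). The median log2 change of the members was -0.50, against 0.01 over all genes. This comparison shares the day 1 arrays with the wild-type comparison of days and the heterozygous arrays with the comparison of genotypes, so the 3 are not independent. Aldoa had a log2 change of -1.76 here and -2.28 between the wild-type groups, and Pgk1 -1.39 and -1.67. Pfkfb3 had 3.18 here and 3.42 there. Hk1 read 1594 and 1499 in heterozygotes against 555 and 718 on day 1 (log2 change 1.29 ± 0.22, adjusted p = 0.0400), and Ugp2 13002 and 11706 against 4276 and 3838 (log2 change 1.61 ± 0.20, adjusted p = 0.0209). Pfkp, at 42.0 and 23.8 against 2027 and 1295, just missed the threshold (log2 change -5.63, adjusted p = 0.05004). Acss2 was near its day 1 level (log2 change 0.01 ± 0.31, adjusted p = 0.986), and Acss1 was lower without passing (log2 change -0.99 ± 0.34, adjusted p = 0.165). The dim phosphorylase genes read 0.463 and 10.3 for Pygl and 21.3 and 4.21 for Pygm in heterozygotes, and Pdk4 read 31.7 and 15.4, Fbp2 111 and 109.6, Gys1 172 and 84.5 and Pdk2 274 and 251, none of them past the threshold against day 1. With genes of mean signal under 100 left out, 7 of 33 members were higher and 13 lower, against 19.3% and 14.9% of the genes kept. Without any 1 of the 4 arrays of these 2 groups, none of the 18194 genes passed. The members' median log2 change then lay between -0.52 and -0.43, against 0.00 to 0.04 over all genes.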

How the data were processed

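Per the labels' protocols, RNA of the separated epithelium was reverse transcribed from 100 ng and biotin-labelled for 1-colour arrays. What the authors deposited is an intensity per probe set, on a linear scale. Transcriptome Analysis Console, RMA and Affymetrix Expression Console are the tools that the submitters' processing notes list, with neither version nor role. RMA output would be logged with equal quantiles, whereas these values are linear, have unequal quantiles, and have a mean of 500 on every array once 2% is trimmed from both ends. How the probes were summarised is not given in the sources used. Detection calls were not used, and signals under 50 are read as low.

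Of 45101 probe sets, 34948 were annotated to 1 gene symbol (3 of them control probe sets, used for Gapdh only), 932 to several, 9160 to none, and 61 were other controls. Gene IDs of 34744 matched RefSeq (GRCm38.p6), which changed 0 symbols. Values were taken as log2(signal + 1) without further normalization or filter. Adding 1 shrinks the ratios of dim signals, and the size of a dim gene's change is poorly fixed. For Pygm between the wild-type days, the log2 change ran from 0.90 to 3.53 over the settings tried. The fit in limma 3.58.1 (R 4.3.3) used the 6 arrays with a term per group, default eBayes, two-sided tests and Benjamini-Hochberg adjustment over 18194 genes. With 2 arrays against 2, no exact permutation test can reach 0.05, so none was run. The labels name no batch and no pairing, and no arrays were identical. The scripts were tested on simulated data.

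The members, the other gene lists and the tests were chosen with earlier results of these data known. Members were given array by array where they passed an adjusted p of 0.05, or had an unadjusted p under 0.05 with a 2-fold or larger change, in any comparison, together with the brightest member of each class. Other pathway genes were named by smallest p, at most 4 per comparison. Alternatives covered scaling, dim genes, pseudocount, the eBayes prior, array weights, 4-array fits, the choice of probe set, the threshold and leaving out each array.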

Additional observations from a re-analysis of the deposited data

How the results depend on the processing

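The counts of members past the threshold depended more on the fit than their directions did. Between wild-type day 4 and day 1, 17 members passed. After centring each array on its median 8 did (7.74% of all genes). In a fit on the 4 arrays of those groups 3 did (3.39%), and 9 when probe sets were averaged per gene (9.95%). Leaving out 1 array gave 0 to 12, and 19 to 24 with the intensity trend. Between heterozygotes and wild type on day 4, 0 passed. With dim genes left out 1 did (2.06% of the genes kept). The intensity trend called 4 (3.52% of all genes), 1 after centring (1.26%) and 4 after quantile normalization (3.68%). Leaving out 1 array gave 0 each time, and 1 to 5 with the trend. Between heterozygotes and wild type on day 1, 9 passed. After centring 3 did (6.06% of all genes), of which only 1 was among those 9. When probe sets were averaged per gene 5 did (6.97%), and 5 with every probe set on its own (7.15%). There, 20 passed with dim genes left out (34.1% of the genes kept). A pseudocount of 32 gave 17 (15.1% of all genes) and array weights 17 (18.6%). At an adjusted p under 0.10, 17 passed. With the trend 23 did (21.3%), also after quantile normalization (21.8%). Leaving out 1 array gave 0 to 9, and 14 to 24 with the trend. Where leaving out an array left a group with 1, that array was assumed to vary like the others. The 2 settings that combine the trend with scaling were chosen after seeing the data. Of 52 single-gene differences that passed, or were 2-fold or larger at an unadjusted p under 0.05, only that of Acss1 between genotypes changed sign, to -0.10 with the mean of its probe sets. Scaling moved the median log2 change of all genes between day 4 and day 1 in wild type from 0.30 to 0.15 with quantile normalization and to 0.00 with centring. The members' median moved from -0.48 to -0.52 and -0.78. Between genotypes the median of all genes moved from -0.20 to -0.06 and 0.25, and that of the members from 0.16 to 0.16 and 0.61. No paired analysis was possible because the groups share no replicate numbers.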
